A study of Mus musculus with 18 samples.

Results

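The 10 genes described here encode adhesion and intermediate filament proteins of epithelial and mesenchymal cells, and were followed from mouse embryonic stem cells (ESCs) to epiblast-like cells (EpiLCs), with and without Δ9-tetrahydrocannabinol (Δ9-THC). They are the classical cadherins Cdh1, Cdh2 and Cdh3, the junction genes Epcam, Tjp1, Cldn6 and Cldn7, the keratins Krt8 and Krt18, and Vim. They were listed by name, with earlier results of these data known. All 10 had a row among the 13104 genes measured in ESCs, the 13717 in EpiLCs and the 12410 measured in both. ESCs were BVSC cells, which carry the Blimp1::mVenus and Stella::ECFP reporters, grown in 2i+LIF on poly-ornithine and laminin. EpiLCs were derived from them on fibronectin with activin A, bFGF and serum replacement. Each cell type had 3 vehicle libraries (mock-treated with ethanol, the solvent) and 3 libraries exposed to 100 nM Δ9-THC, and exposed EpiLCs came from exposed ESCs in the continuous scheme. The study describes its main data as coming from female cells (it lists a female clone, H18). It used male cells (it lists a male clone, R8) to repeat the proliferation experiment and the differentiation into primordial germ cell-like cells (PGCLCs). The labels name no clone for any library. The libraries are labelled as biological replicates, and if they were not separate cultures the p-values cover technical spread alone. Vehicle and Δ9-THC libraries of the same number deviated in opposite directions (correlations of -0.987 to -0.977 in ESCs and -0.985 to -0.979 in EpiLCs). The permutation tests and the main edgeR fits took all libraries as independent, so their p-values are approximate. With such opposite deviations the difference between exposures varies more than independent libraries would give, so these SEs and p-values tend to be too small. When the library number was added to the edgeR fit, the genes with an adjusted p of at most 0.05 in ESCs fell from 906 to 5.

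The question put to these data was at which level each adhesion and filament gene stood in the 2 cell states, and whether Δ9-THC moved it. Cadherins are transmembrane proteins that join neighbouring cells through calcium-dependent contacts and are anchored to actin by catenins. Claudins and the scaffold protein ZO-1, the product of Tjp1, build tight junctions, which seal the space between cells. Keratin 8 and keratin 18 pair into the first filaments of simple epithelia, whereas vimentin forms the filaments of mesenchymal cells. The passage from naive to formative pluripotency, which the step from ESCs to EpiLCs models, accompanies the reshaping of the epiblast into a polarised epithelium.

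Levels are given as CPM, the adjusted counts of a gene scaled to the total of its library, after TMM scaling of all 12 libraries on the genes of both cell types. Library totals ranged from 23427551 to 32096698 counts. The lowest count of any of the 10 genes in a library was 91, for Cdh2 in EpiLCs, where counting error alone is 10.5% of the value. The batch-adjusted counts of ESCs and EpiLCs are held in separate tables, and whether they were adjusted together is not given in the sources used here. Cell type and adjustment therefore cannot be told apart, and levels across the cell types are described without a test. In bulk RNA, fewer cells that express a gene and less RNA per cell cannot be told apart either.

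The labelled cell types were checked against their markers. All 8 naive markers (Zfp42, Klf4, Esrrb, Tfcp2l1, Nr0b1, Tbx3, Prdm14 and Nanog) were more than 2-fold lower in vehicle EpiLCs than in vehicle ESCs, with a median log2 ratio of -5.49. Of the 6 formative markers, Otx2, Pou3f1, Dnmt3b, Dnmt3a and Sox3 were more than 2-fold higher, with a median of 3.60, and Fgf5 had a row for EpiLCs alone. Keratins 8 and 18 also mark trophectoderm, the outer layer of the blastocyst. Of 7 trophectoderm markers, Cdx2, Elf5, Gata3 and Hand1 had no row in either cell type among the genes left after those with low counts were removed. Gata2, Eomes and Tfap2c were measured, and their summed level was 156 to 172 CPM in vehicle ESCs and 23.8 to 27.9 CPM in vehicle EpiLCs. Most of the sum in vehicle ESCs was Tfap2c (mean of 133 CPM, against 18.5 CPM for Gata2 and 10.2 CPM for Eomes). Primitive endoderm was represented by 1 of 7 markers in ESCs (Gata4) and by 2 in EpiLCs (Gata4 and Dab2), with sums of at most 3.40 and 9.93 CPM. Fibroblast markers, of which 2 of 6 were measured in ESCs and 4 in EpiLCs, summed to at most 7.34 and 19.6 CPM, mesoderm markers to at most 3.48 CPM and neural markers to at most 24.3 CPM. The part of such cells in the results below was not tested.

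Between vehicle libraries, 6 of the 10 genes (Krt18, Cldn6, Cldn7, Epcam, Krt8 and Cdh3) were more than 2-fold higher in EpiLCs, beside 11.2% of the 12410 genes of both cell types, and 2 (Vim and Cdh2) were more than 2-fold lower, beside 10.5%. Between exposed libraries the counts were again 6 and 2, beside 11.5% and 9.3% of all genes. Cdh1 was 1.36-fold higher in vehicle EpiLCs and Tjp1 was 1.08-fold lower, so that neither passed 2-fold. The vehicle libraries of the cell types did not overlap for 9 of the 10 genes, which is a common state (75.4% of all genes), and overlapped for Tjp1. The median log2 ratio was 1.56 over the 10 genes and 0.0024 over all genes.

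**Figure D1:**
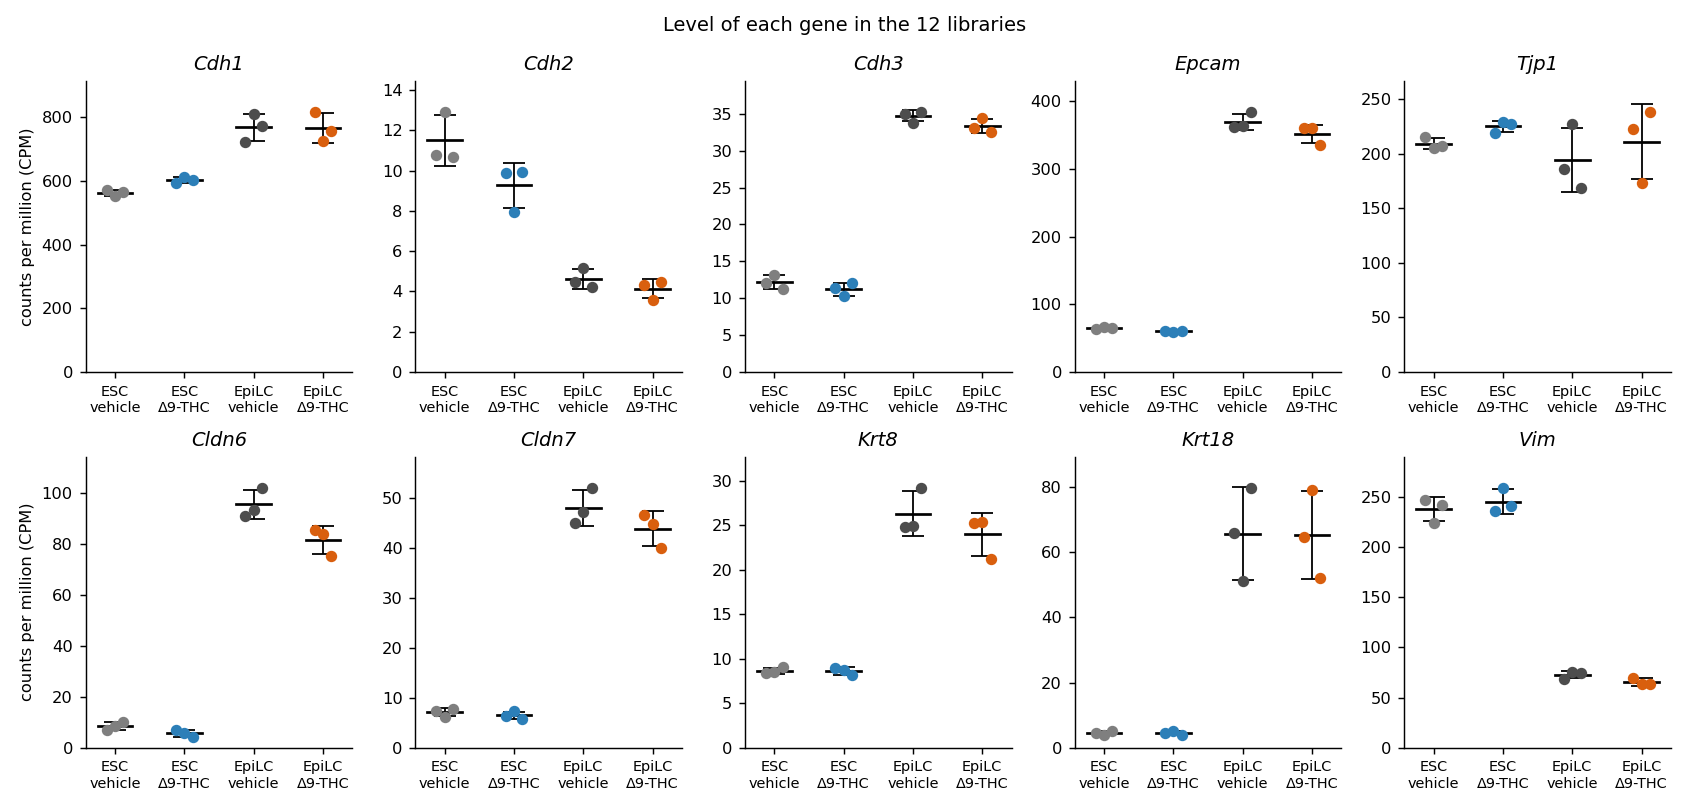
Level of each of the 10 genes in CPM (linear axes from 0, a different scale in each panel) in the 3 libraries of each group; points are libraries, the long bar is the group mean and the error bars are ± SD. Epcam, Cldn6, Cldn7, Krt8, Krt18 and Cdh3 sit far higher in both EpiLC groups than in both ESC groups, Vim and Cdh2 sit lower, and the vehicle and Δ9-THC points of a cell type lie close together.

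Cdh1 (ENSMUSG00000000303, chromosome 8, 106603351 to 106670246 on the plus strand of GRCm38) encodes E-cadherin, the cadherin of epithelia and of pluripotent cells. Its level was 572, 554 and 564 CPM in vehicle ESC libraries 1 to 3 and 593, 613 and 602 CPM with Δ9-THC. In EpiLCs it was 723, 809 and 772 CPM in vehicle libraries and 816, 725 and 757 CPM with Δ9-THC. All 6 EpiLC libraries therefore stood above all 6 ESC libraries, and the exposed ESC libraries stood just above the vehicle ones. Cdh3 (ENSMUSG00000061048), the gene of P-cadherin, neighbours Cdh1 on chromosome 8, from 106510891 to 106557297. It ranged from 10.3 to 13.2 CPM over the ESC libraries and from 32.5 to 35.2 CPM over the EpiLC libraries, with a log2 ratio of 1.51 (SE 0.067) with the vehicle and 1.57 (SE 0.07) with Δ9-THC.

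Cdh2 (ENSMUSG00000024304, chromosome 18, 16588877 to 16809246, minus strand) encodes N-cadherin, which is typical of neural and mesenchymal cells. In ESCs it stood at 10.8, 12.9 and 10.7 CPM with the vehicle and at 9.90, 7.97 and 9.93 CPM with Δ9-THC. In EpiLCs it stood at 4.48, 5.17 and 4.20 CPM with the vehicle and at 4.32, 3.60 and 4.48 CPM with Δ9-THC. Every EpiLC library was below every ESC library, and the log2 ratio was -1.31 (SE 0.13) between vehicle libraries and -1.17 (SE 0.14) between exposed ones. Between the cell types Cdh2 and Cdh3 thus differed in opposite directions while Cdh1 stayed far above both.

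Per kilobase of exon, which allows genes of different length to be compared, Cdh1 made up 96.7% ± 0.321 (SD, n = 3) of the summed level of the 3 cadherins in vehicle ESCs and 95.2% ± 0.306 in vehicle EpiLCs. The share of Cdh2 was 1.03%, 1.27% and 1.04% in the vehicle ESC libraries and 0.333%, 0.346% and 0.294% in the vehicle EpiLC libraries. The share of Cdh3 was 2.13%, 2.39% and 2.03% in the former and 4.79%, 4.16% and 4.53% in the latter. Among these 3 genes, Cdh3 thus had a larger share than Cdh2 in both states, by a wider margin in EpiLCs. Further cadherin genes were left out of the sum, such as Cdh4 (12.7 CPM in vehicle ESCs and 4.22 CPM in vehicle EpiLCs) and Cdh24 (3.41 and 8.91 CPM). With Δ9-THC, the 3 ESC libraries had lower shares of Cdh2 (0.919%, 0.720% and 0.908%) and Cdh3 (1.94%, 1.71% and 2.02%) than the 3 vehicle libraries, and a mean share of Cdh1 higher by 0.562 percentage points. Each of these 3 differences had p = 0.1 in a two-sided exact permutation test, the smallest p that 3 against 3 libraries allow, and an adjusted p of 0.2 over the 6 comparisons made. The test takes libraries as independent, which those of the same number are not. In EpiLCs the shares of all 3 cadherins overlapped between the exposures (exact permutation p = 0.5 for Cdh1, 0.2 for Cdh2 and 0.7 for Cdh3, adjusted p = 0.6, 0.3 and 0.7).

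**Figure D2:**
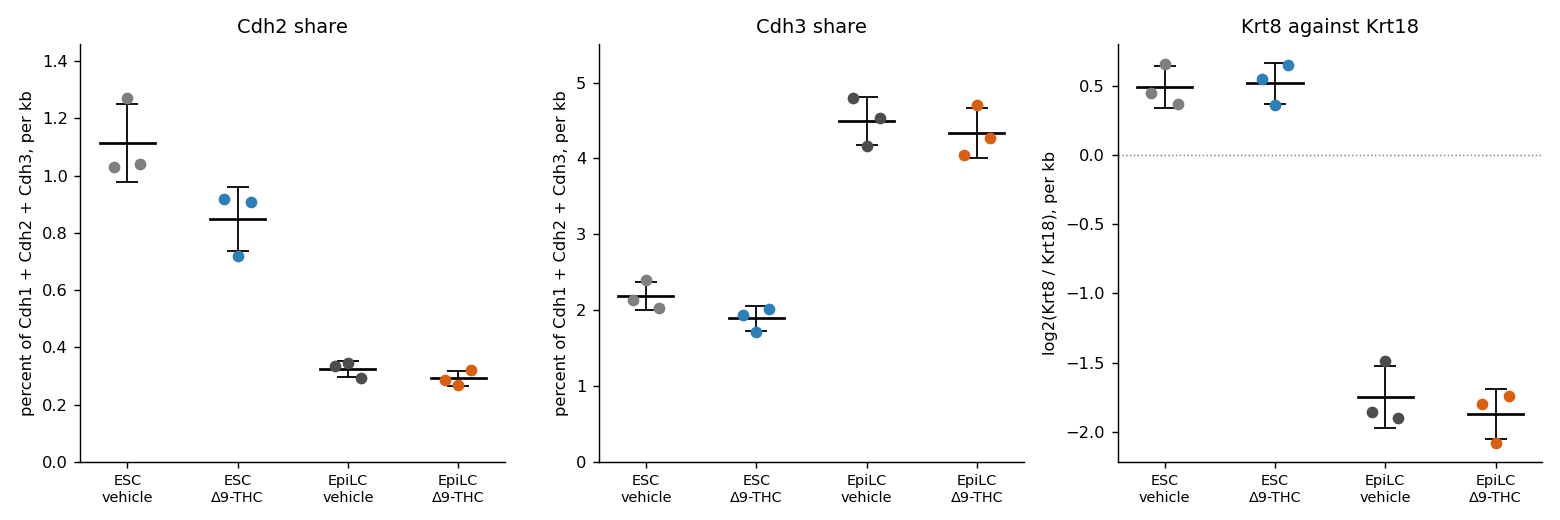
Share of Cdh2 and of Cdh3 in the summed level of Cdh1, Cdh2 and Cdh3 per kilobase (percent, axes from 0) and the log2 ratio of Krt8 to Krt18 per kilobase, by library; the long bar is the mean and the error bars are ± SD of 3 libraries. Cdh2 takes a smaller share and Cdh3 a larger share in EpiLCs, and the keratin ratio lies above 0 in all ESC libraries and below -1.4 in all EpiLC libraries.

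Epcam (ENSMUSG00000045394, chromosome 17, 87635979 to 87651129, plus strand) encodes the epithelial cell adhesion molecule, a surface glycoprotein of epithelia and pluripotent cells. Its level was 64.1, 66.3 and 64.7 CPM in vehicle ESCs and 61.0, 59.0 and 60.4 CPM in exposed ESCs. In EpiLCs it was 362, 364 and 384 CPM in vehicle libraries and 361, 360 and 336 CPM in exposed ones. EpiLCs thus carried 5.70-fold the level of ESCs with the vehicle and 5.86-fold with Δ9-THC, the narrowest errors among the 10 genes on the log2 scale (SE 0.03 and 0.036).

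The claudins are membrane proteins that form the strands of tight junctions. Cldn6 (ENSMUSG00000023906, chromosome 17, 23679249 to 23682446, plus strand), a claudin of early embryonic epithelia, was found at 7.0, 8.40 and 9.94 CPM in vehicle ESCs and at 6.95, 5.68 and 4.30 CPM in exposed ESCs. In EpiLCs it was found at 91.1, 93.4 and 102 CPM with the vehicle and at 85.6, 83.9 and 75.4 CPM with Δ9-THC. It was 11.3-fold higher in EpiLCs with the vehicle and 14.5-fold higher with Δ9-THC, and in each cell type the 3 exposed libraries lay below the 3 vehicle ones, in ESCs by a gap of 7.0 against 6.95 CPM between the nearest. Cldn7 (ENSMUSG00000018569, chromosome 11, 69964779 to 69967885, plus strand), which is widespread in epithelia, ranged from 5.83 to 7.71 CPM over the ESC libraries and from 39.9 to 52.0 CPM over the EpiLC libraries. Its fold between the cell types was 6.78 for vehicle libraries and 6.76 for exposed ones.

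Tjp1 (ENSMUSG00000030516, chromosome 7, 65296165 to 65527781, minus strand) did not follow the claudins. It stood at 215, 205 and 207 CPM in vehicle ESCs and at 219, 229 and 227 CPM in exposed ESCs. In EpiLCs it stood at 186, 227 and 169 CPM with the vehicle and at 223, 173 and 238 CPM with Δ9-THC, a wider spread (coefficient of variation 15.1% and 16.2%, against 2.37% and 2.34% in ESCs). Its log2 ratio between the cell types, -0.11 (SE 0.13) with the vehicle and -0.09 (SE 0.14) with Δ9-THC, was within its error.

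Promoter sequences were given by RefSeq for 7 of the 10 genes (8 windows, GRCm38.p6), and not for Cdh1, Cdh2 and Cdh3. The 250 bases before each start were searched on both strands for CACCTG, the E-box that Snail and Zeb repressors bind. Among the windows described here, it occurred once in Cldn6 and Krt18, and at 2 places in Epcam and in the second window of Cldn7. It was not found in the windows of Tjp1 and Vim or in the first window of Cldn7, and 16.2% of 12116 windows of the genes of both cell types held it. The GC box GGGCGG, which does not overlap any of these E-boxes, occurred in Cldn6, the second window of Cldn7, Epcam and Tjp1, and in 59.1% of all windows. A match describes these letters alone, and its relation to the levels was not tested. Vim and Cldn7 differed more than 2-fold between the cell types, yet the window of Vim and the first window of Cldn7 hold no E-box. The sequences below are those of 2 genes with E-boxes and much higher levels in EpiLCs, and of Tjp1, whose level differed little and whose window holds no E-box. They read 5′ to 3′ on the strand of the gene, with E-boxes (CACCTG or its reverse complement CAGGTG) in capitals, and lie outside the exons that GENCODE annotates for the gene, before its first exon for Epcam and Krt18 and in an intron for Tjp1.
Epcam, chr17:87635729-87635978, plus strand: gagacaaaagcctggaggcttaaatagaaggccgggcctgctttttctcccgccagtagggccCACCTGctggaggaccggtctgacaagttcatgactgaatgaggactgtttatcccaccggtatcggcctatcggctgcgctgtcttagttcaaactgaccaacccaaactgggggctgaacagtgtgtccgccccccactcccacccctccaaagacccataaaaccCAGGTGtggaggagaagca
Krt18, chr15:102027966-102028179, plus strand: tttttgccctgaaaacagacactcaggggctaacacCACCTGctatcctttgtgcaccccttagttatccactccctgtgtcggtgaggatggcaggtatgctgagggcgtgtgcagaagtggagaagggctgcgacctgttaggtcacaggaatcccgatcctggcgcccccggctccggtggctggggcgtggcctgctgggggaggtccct
Tjp1, chr7:65371245-65371494, minus strand: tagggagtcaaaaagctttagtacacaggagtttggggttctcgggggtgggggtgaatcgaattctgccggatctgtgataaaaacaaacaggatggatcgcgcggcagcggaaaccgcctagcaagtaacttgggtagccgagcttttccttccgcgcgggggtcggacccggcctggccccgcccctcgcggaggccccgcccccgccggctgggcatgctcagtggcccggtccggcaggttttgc

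The E-boxes of Epcam began at positions -187 and -19 from the RefSeq start and that of Krt18 at -214. That of Cldn6 (-93) lies in sequence that GENCODE annotates as exon, so it is shown with 12 bases on each side.
Cldn6, chr17:23679260-23679289, plus strand: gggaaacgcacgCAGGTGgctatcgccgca

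Among the filament genes, Krt18 (ENSMUSG00000023043, chromosome 15, 102028180 to 102032027, plus strand) had the largest ratio between the cell types of the 10 genes. It was measured at 4.49, 3.98 and 5.13 CPM in vehicle ESCs and at 4.49, 5.02 and 3.81 CPM in exposed ESCs. In EpiLCs it was measured at 66.1, 51.3 and 79.8 CPM with the vehicle and at 64.8, 79.1 and 52.1 CPM with Δ9-THC. EpiLC levels were 14.5-fold higher with the vehicle and 14.7-fold higher with Δ9-THC, and 99.8% of all genes had a lower ratio with the vehicle. Replicates of Krt18 also spread the most of the 10 genes in EpiLCs, with a coefficient of variation of 21.7% and 20.7%.

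Krt8 (ENSMUSG00000049382, chromosome 15, 101996698 to 102004482, minus strand), which encodes the partner of keratin 18 and neighbours it on the chromosome, differed less between the cell types. It ranged from 8.15 to 9.05 CPM over the ESC libraries and from 21.2 to 29.2 CPM over the EpiLC libraries, a 3.04-fold difference with the vehicle and 2.78-fold with Δ9-THC. Its counts are less certain than the others, since 5.16% of its exon bases are shared with the opposite-strand lincRNA Gm36026, which counting without strand cannot separate, and 1 pseudogene copy is annotated. Per kilobase, Krt8 was above Krt18 in ESCs, by 1.37-, 1.58- and 1.30-fold in the vehicle libraries. In EpiLCs the order turned, and Krt18 was above Krt8 by 3.63-, 2.81- and 3.72-fold in the vehicle libraries. The log2 ratio of Krt8 to Krt18 in ESCs was 0.49 ± 0.15 (SD, n = 3) without Δ9-THC and 0.52 ± 0.15 with it, and in EpiLCs it was -1.75 ± 0.22 and -1.88 ± 0.18. The exposures differed by less than this spread in both (two-sided exact permutation p = 1 in ESCs and 0.6 in EpiLCs, adjusted p = 1 over the 2 comparisons, with 0.1 the smallest p possible).

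Vim (ENSMUSG00000026728, chromosome 2, 13573927 to 13582826, plus strand) was the second most abundant of the 10 genes per kilobase in ESCs. Its level was 247, 224 and 242 CPM in vehicle ESCs and 236, 259 and 241 CPM in exposed ESCs. In EpiLCs it was 68.7, 75.5 and 74.3 CPM in vehicle libraries and 69.7, 63.2 and 63.8 CPM in exposed ones. EpiLC libraries were thus 3.26-fold lower with the vehicle and 3.74-fold lower with Δ9-THC, with no overlap, and 3.86% of all genes had a lower ratio with the vehicle.

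**Figure D3:**
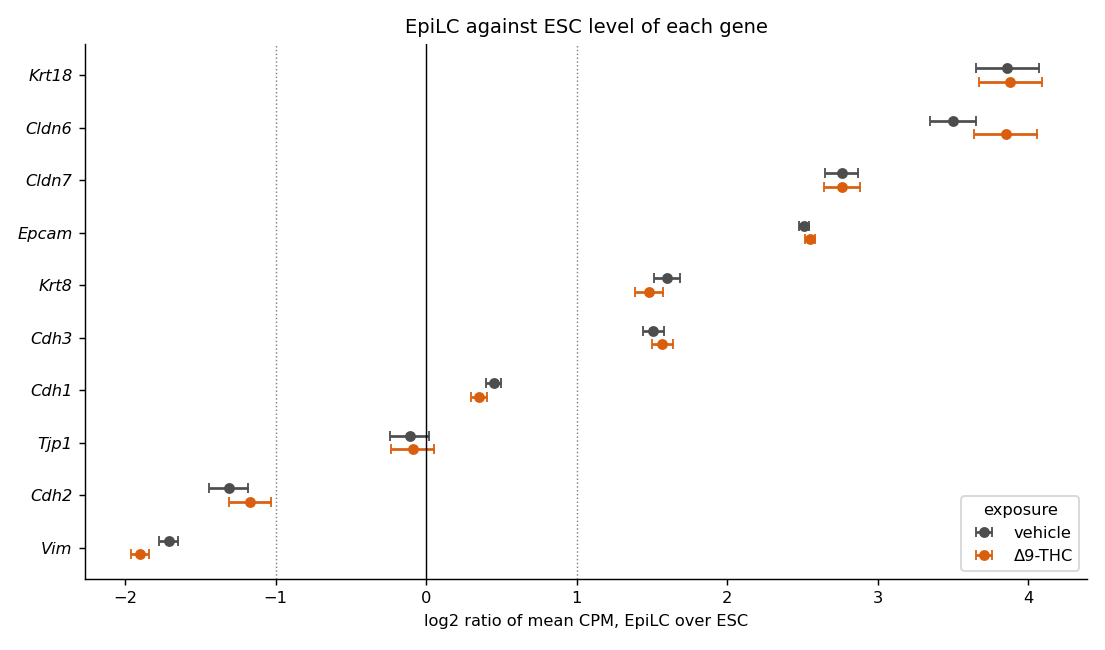
Log2 ratio of the mean CPM in EpiLCs to that in ESCs for each of the 10 genes, for vehicle and Δ9-THC libraries; error bars are ± SE from 3 libraries per group and dotted lines mark a 2-fold difference. Krt18 is highest at 3.86 with the vehicle, Vim is lowest at -1.71, and the order with Δ9-THC is the same except that Krt8 and Cdh3 change places.

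The order of the 10 genes per kilobase of exon changed with the cell type. In vehicle ESCs it ran from Cdh1 (123 ± 1.98 CPM per kilobase, SD, n = 3) through Vim (50.1 ± 2.59), Epcam (29.6 ± 0.522), Tjp1 (26.8 ± 0.635), Cldn6 (4.91 ± 0.854), Krt8 (4.42 ± 0.18), Cldn7 (3.64 ± 0.401), Krt18 (3.15 ± 0.4) and Cdh3 (2.78 ± 0.215) to Cdh2 (1.42 ± 0.158). Neighbours in this order whose libraries overlapped were Cldn6 with Krt8, Cldn7 with Krt18 and Krt18 with Cdh3. In vehicle EpiLCs, Epcam (169 ± 5.47) and Cdh1 (168 ± 9.41) overlapped at the top, followed by Cldn6 (55.5 ± 3.4) and Krt18 (45.8 ± 9.94), which overlapped, and by Tjp1 (24.8 ± 3.76) and Cldn7 (24.7 ± 1.85), which overlapped. Vim (15.4 ± 0.77) and Krt8 (13.4 ± 1.29) overlapped as well, and Cdh3 (7.91 ± 0.172) and Cdh2 (0.572 ± 0.0617) stood apart at the bottom. Vim had moved from the second to the seventh place and Krt18 from the eighth to the fourth.

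The genes most like Krt18, Cldn6 and Cldn7, which had the largest ratios, were sought among 10292 genes with a mean of at least 5 CPM, by the root mean square difference of their centred log2 CPM over the 12 libraries. For Krt18 they were Prph (0.15) and Cdkn1c (0.16), for Cldn6 they were Igsf9 (0.091) and Tpm2 (0.15), and for Cldn7 they were Utf1 (0.10) and Arhgef25 (0.12). Prph encodes peripherin, another intermediate filament protein, and Tpm2 a tropomyosin, an actin-binding protein. Within the 10 genes, the nearest pairs were Cdh3 with Krt8 (0.12) and Epcam with Cldn7 (0.16). Cldn6 and Krt18 differed by 0.30, Cdh1 and Tjp1 by 0.28, and Cdh2 and Vim by 0.35.

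Other genes of the same structures did not move as a block. The counts below leave out genes with a row in 1 cell type alone. For EpiLCs alone these were 0 genes of adherens junctions, 3 of tight junctions and polarity, 1 of desmosomes and intermediate filaments, 1 regulator and 2 mesenchymal and cytoskeletal genes. For ESCs alone there was 1, the regulator Snai2. Of 15 further genes of adherens junctions, 11 were measured in both cell types, and 1 was more than 2-fold higher and 3 more than 2-fold lower in vehicle EpiLCs, with a median log2 ratio of -0.49. Cdh24, a cadherin, was higher (1.39, SE 0.15), whereas Cdh4, the gene of R-cadherin, and Vcl, which encodes the actin linker vinculin, were lower (-1.58, SE 0.17, and -1.32, SE 0.34). Of the exon bases of Vcl, 25.5% are shared with the opposite-strand gene Ap3m1, so its value is less certain. For tight junctions and polarity, 19 of 25 genes were measured in both, 6 were higher and 2 lower, with a median of 0.33. Cgn (cingulin, a cytoplasmic protein of tight junctions) had a log2 ratio of 3.12 (SE 0.07), Patj (a polarity scaffold) one of 2.26 (SE 0.023) and Marveld2 (tricellulin) one of 2.08 (SE 0.10). The largest of these, that of Cgn, corresponds to 9.63 ± 0.187 CPM in vehicle ESCs and 83.4 ± 6.92 CPM in vehicle EpiLCs (SD, n = 3).

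Desmosome and intermediate filament genes went both ways. Of 21, 19 were measured in both cell types, 7 were more than 2-fold higher and 3 more than 2-fold lower in vehicle EpiLCs, with a median of 0.31. The desmosomal cadherin gene Dsg2 stood at 147 CPM in vehicle ESCs and 19.9 CPM in vehicle EpiLCs, a log2 ratio of -2.89 (SE 0.087). Keratin genes did not share a direction, since Krt42 had a ratio of -2.61 (SE 0.2) and Krt7 one of 2.55 (SE 0.56).

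Of 16 regulators of the epithelial and mesenchymal states, 9 were measured in both cell types, of which 3 were more than 2-fold higher, 3 more than 2-fold lower and 3 within 2-fold, with a median log2 ratio of 0.13. Esrp1, which encodes an epithelial splicing regulator, went from 5.80 ± 1.36 CPM in vehicle ESCs to 103 ± 5.99 CPM in vehicle EpiLCs (SD, n = 3), a log2 ratio of 4.16 (SE 0.21). Grhl2, a transcription factor gene of epithelia, had a ratio of 2.63 (SE 0.23). Grhl3 and Elf3, further epithelial transcription factor genes that were named after their values were seen, were lower, with ratios of -2.56 (SE 0.14, from 27.9 to 4.74 CPM) and -2.13 (SE 0.12, from 145 to 33 CPM). Of the exon bases of Elf3, 7.31% are shared with the opposite-strand Gm26642. Zeb1, a repressor of epithelial genes that binds E-boxes, had one of -3.34 (SE 0.085), from 31.2 to 3.08 CPM. Other regulators of the mesenchymal state did not share its direction, though their levels were low and they were named after their values were seen. Twist1 was the third of the higher genes, with a ratio of 1.35 (SE 0.084, from 1.19 to 3.03 CPM). Snai1 had 0.46 (SE 0.2, from 1.47 to 2.03 CPM), with overlapping libraries. Of 14 mesenchymal and cytoskeletal genes, 9 were measured in both, 3 were higher and 2 lower, with a median of 0.87. Mmp2, a matrix protease gene, and Tpm2 were higher (3.57, SE 0.088, and 3.36, SE 0.17), while Fn1, which encodes fibronectin and was the most abundant of the list, was lower (-2.61, SE 0.067). Vim therefore had the direction of Fn1 and not that of Mmp2 and Tpm2.

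**Figure D4:**
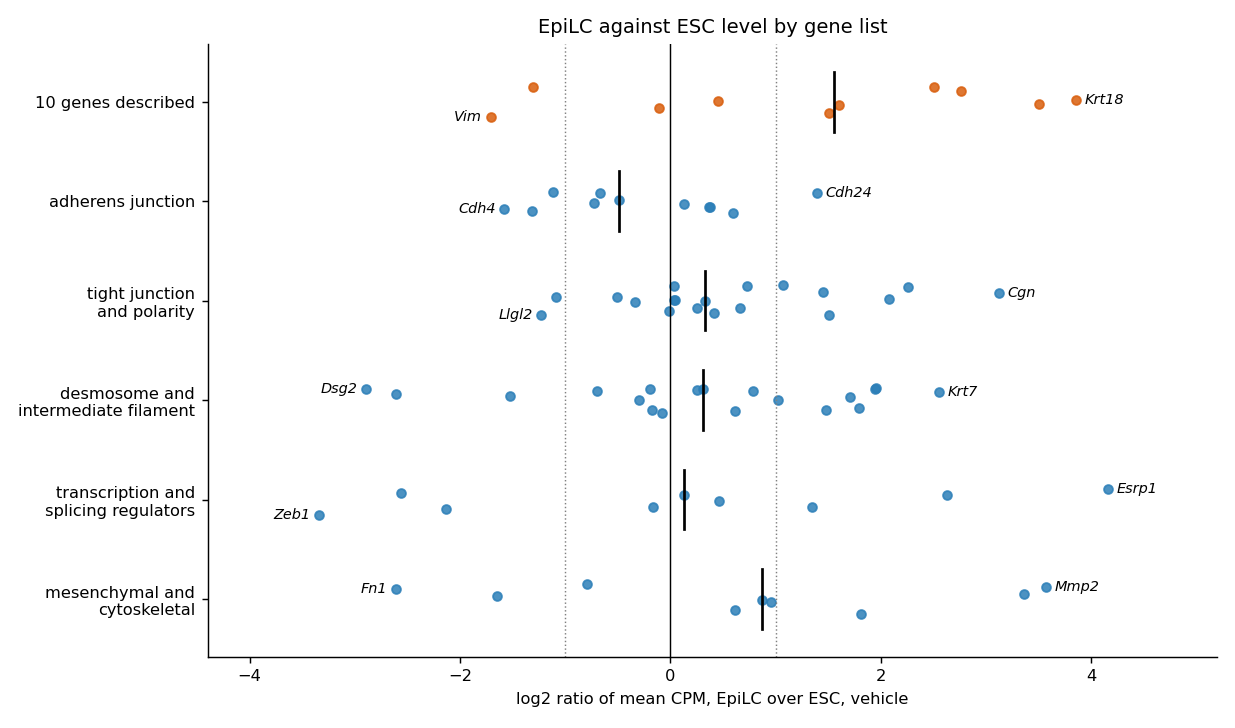
Log2 ratio of mean CPM in vehicle EpiLCs to that in vehicle ESCs for the 10 genes and for 5 lists of related genes; each point is a gene measured in both cell types (spread vertically for legibility), the black bar is the median of the list and dotted lines mark a 2-fold difference. The 10 genes have a median of 1.56, and every list holds genes on both sides of 0, with Esrp1 and Zeb1 at the ends.

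In ESCs, no significant change with Δ9-THC was detected in the 10 genes. None of them was called by edgeR, whose p-values were adjusted over all genes by the Benjamini-Hochberg method (0 of 10, beside 6.91% of the 13104 genes tested, 441 higher and 465 lower). At an unadjusted p under 0.05 there were 5 of 10, beside 28.7% of all genes, and the same 5 genes had all exposed libraries on one side of all vehicle libraries, beside 33% of all genes. That count of 5 was 1 with the replicate block, 2 with the block and the GC and length offsets, 3 in the fit of all 12 libraries, 2 without Δ9-THC library 2 and 3 without vehicle library 2. Cdh1 and Tjp1 lay higher with Δ9-THC, and Cdh2, Epcam and Cldn6 lower. The median log2(fold-change) was -0.052 over the 10 genes and 0.0041 over all genes.

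The smallest adjusted p in ESCs was that of Cdh1, with a log2(fold-change) of 0.11 (SE 0.027, edgeR, adjusted p = 0.0534), from 563 ± 9.08 to 603 ± 9.77 CPM (SD, n = 3). Tjp1 had 0.12 (SE 0.03, adjusted p = 0.0602, edgeR) and Epcam -0.10 (SE 0.031, adjusted p = 0.104, edgeR). The largest effect was that of Cldn6, -0.56 (SE 0.19, adjusted p = 0.118, edgeR), from 8.44 ± 1.47 to 5.64 ± 1.32 CPM. DESeq2, which the study used, called Cldn6 alone of the 10 (adjusted p = 0.0424), and the adjusted p of Cldn6 ranged from 0.0424 to 0.896 over the 14 alternative settings. Cdh2 had -0.29 (SE 0.12, adjusted p = 0.159, edgeR), and the values for Cdh3 (-0.11), Cldn7 (-0.11), Vim (0.061), Krt8 (0.012) and Krt18 (-0.0075) had adjusted p-values from 0.445 to 0.979 with edgeR. Across 13083 genes the log2(fold-change) in ESCs was lower for genes richer in GC (rho of -0.536 by Spearman, over genes and not over replicates). With that trend and the one with length removed, the effects were 0.14 for Cdh1, 0.10 for Tjp1, -0.51 for Cldn6, -0.27 for Cdh2 and -0.057 for Epcam, and 0 of the 10 were called.

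In EpiLCs, 9 of the 10 genes were lower and 1 (Tjp1) was higher with Δ9-THC, and none was called by edgeR (0 of 10, beside 0% of 13717 genes; DESeq2 called 0 of the 10 and 87 genes in all). Over all genes, 6764 of 13717 were lower (49.3%), and the log2(fold-change) was again lower for genes richer in GC (rho of -0.299 by Spearman over 13696 genes). With the trends with GC and length removed, 6 of the 10 were lower and 4 (Cdh1, Epcam, Krt18 and Tjp1) were higher, with a median of -0.021. At an unadjusted p under 0.05 there was 1 of 10, Cldn6, beside 15.1% of all genes, with 0 under the replicate block or without library 3 of either exposure and 2 without library 1 of either. Its log2(fold-change) was -0.23 (SE 0.076, edgeR, adjusted p = 0.252), from 95.5 ± 5.85 to 81.6 ± 5.47 CPM (SD, n = 3). All exposed libraries lay on one side of the vehicle libraries for 2 genes, Cldn6 and Epcam, beside 21.8% of all genes, and in Epcam the gap lay between 361 and 362 CPM. Vim had -0.15 (SE 0.069, adjusted p = 0.364, edgeR), and the other 8 genes had values from -0.16 (Cdh2) to 0.12 (Tjp1) with adjusted p-values from 0.51 to 0.987. The median was -0.10 over the 10 genes and 0.003 over all genes.

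**Figure D5:**
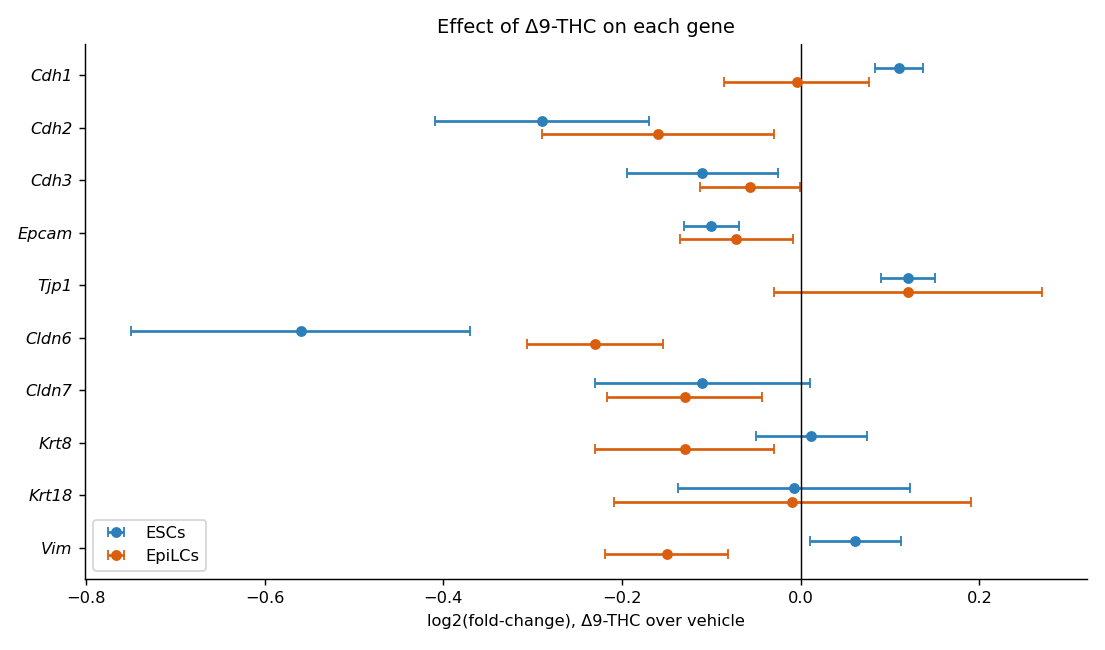
Log2(fold-change) of Δ9-THC over vehicle for each of the 10 genes in ESCs and in EpiLCs; points are edgeR estimates from 3 libraries against 3 and error bars are ± SE. All values lie between -0.56 (Cldn6 in ESCs) and 0.12 (Tjp1), and none passed the adjusted threshold.

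The effect of Δ9-THC was then compared between the cell types in a single model of the 12 libraries, as the log2(fold-change) in EpiLCs minus that in ESCs. None of the 10 genes was called (0 of 10, beside 0.0322% of 12410 genes, which is 4 genes), and 0 of 10 had an unadjusted p under 0.05, beside 13.7% of all genes. The difference was -0.20 for Vim (SE 0.091, adjusted p = 0.366, edgeR) and 0.35 for Cldn6 (SE 0.20, adjusted p = 0.469, edgeR). For the other 8 genes it lay between -0.13 and 0.15, with adjusted p-values from 0.652 to 0.989. The ratios between the cell types therefore did not differ significantly between vehicle and Δ9-THC for any of the 10 genes.

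Among the related genes, 7 of 68 tested were called in ESCs (10.3%, beside 6.91% of all genes) and 0 of 74 in EpiLCs (beside 0% of all genes with edgeR), so nothing particular to these lists is read from the counts. For adherens junctions, 0 were called higher and 2 lower of 11 tested, the adhesion receptor genes Nectin1 (-0.17, SE 0.033, edgeR adjusted p = 0.0395) and Nectin2 (-0.13, SE 0.025, edgeR adjusted p = 0.04). For tight junctions and polarity 1 was called higher and 1 lower of 19, the claudin genes Cldn12 (0.21, SE 0.034, edgeR adjusted p = 0.0304) and Cldn3 (-0.50, SE 0.11, edgeR adjusted p = 0.0472). For desmosomes and intermediate filaments 1 was called higher and 2 lower of 19, namely Ppl, which encodes the cornified envelope protein periplakin (0.43, SE 0.076, edgeR adjusted p = 0.034), Pkp3 (plakophilin 3, a desmosomal plaque protein, -0.47, SE 0.076, edgeR adjusted p = 0.0304) and Lmna (the nuclear lamins A and C, -0.20, SE 0.043, edgeR adjusted p = 0.0472). None of the 10 regulators and none of the 9 mesenchymal and cytoskeletal genes tested in ESCs was called.

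The list medians of the log2(fold-change) in ESCs were -0.11 for adherens junctions, -0.062 for tight junctions and polarity, 0.062 for desmosomes and intermediate filaments, -0.035 for the regulators and -0.054 for the mesenchymal and cytoskeletal genes. In EpiLCs they were 0.04, 0.028, -0.038, 0.061 and -0.055, in the same order, with 11, 22, 20, 10 and 11 genes tested. Each of the 7 calls was kept in 3 or 4 of the 14 alternative settings (RLE scaling and both other filters on low counts, and for Cldn3, Cldn12 and Pkp3 also DESeq2), and each was lost when any 1 of the 6 libraries was left out. None was kept with the replicate block. With the trends with GC content and length removed none was kept either, and the effects of Nectin1 and Nectin2 became -0.019 and -0.0058 (adjusted p = 0.76 and 0.918, edgeR). Those of Ppl, Pkp3 and Cldn3 were 0.51, -0.31 and -0.32 (adjusted p = 0.0826, 0.107 and 0.165, edgeR), and those of Cldn12 and Lmna were 0.14 and -0.13 (adjusted p = 0.112 and 0.211, edgeR).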

How the data were processed

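The authors sequenced poly(A) RNA of ESCs and EpiLCs in 12 libraries, 3 per cell type and exposure; PGCLC libraries were not analysed here. Per the study's methods and the submitters' processing notes, reads were demultiplexed with bcl2fastq 2.19.1.403, checked with FastQC, aligned with STAR to a genome named both mm10 and GRCm39 (unique alignments) and counted over exons with HTSeq without strand. Genes with low counts were removed and ComBat-seq adjusted the counts. The batches, and the kit used for each library (KAPA or ABClonal), are not given in the sources used here. The deposited values are these adjusted counts, whole numbers per gene and library, unscaled, with ESCs and EpiLCs in different tables. All 12 columns were assigned by name and 0 were left over.

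Within each cell type, Δ9-THC and vehicle were compared with edgeR 4.0.16 (quasi-likelihood, TMM, total over 10 counts, Benjamini-Hochberg adjusted p of at most 0.05 over all genes) in R 4.3.3, and the cell types by an interaction. The SE of a log2(fold-change) is that implied by the F statistic. Shares and ratios were tested by exact permutation of libraries (scipy 1.17.1). Lengths and positions came from GENCODE M21 (GRCm38), matched by gene identifier, and promoters from RefSeq; the promoter search of 1 gene is not reported here. Log2 CPM for the likeness of genes had a prior count of 2.

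The 10 genes and the lists were chosen with earlier results of these data known. Genes of the 5 related lists were named if called, or if among the 3 with the largest ratio between the cell types at a mean of at least 5 CPM. Nearest genes were named for the 3 of the 10 with the largest ratio. Alternatives were RLE normalization, DESeq2 1.42.0, no filter, a minimum of 10 counts in each library, a replicate block, GC and length offsets (splines with 5 degrees of freedom), both together, a fit of all 12 libraries, and each library left out. The fits were tested on simulated counts with known changes, larger than the effects of Δ9-THC reported here, and with independent libraries. That simulation therefore does not cover small effects or tied libraries. Counting error limits the lowest genes and the spread of 3 libraries the others.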

Additional observations from a re-analysis of the deposited data

How the results depend on the processing

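The ratios between EpiLCs and ESCs were stable: 6 of the 10 genes were more than 2-fold higher and 2 lower with library totals alone, with RLE scaling and without each library, for both exposures.

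The count of genes called in ESCs, 906, was 7 with GC and length offsets, 31 in the fit of all 12 libraries, 5 with the replicate block, 3 with the replicate block and offsets, and 0 to 1 when single libraries were left out. In EpiLCs it was 0, against 87 with DESeq2 and 411 in the fit of all 12 libraries. For the difference between the cell types it was 4, against 16 with offsets, 0 with the replicate block and 0 without any single library. Of the 10 genes, 1 (Cldn6, in ESCs with DESeq2, -0.57) was called under any alternative. Same-numbered vehicle and Δ9-THC libraries deviated in opposite directions (correlations of -0.987 to -0.977 in ESCs and -0.985 to -0.979 in EpiLCs, others 0.223 to 0.695), so that same-numbered libraries are tied and not independent. The main fits did not take the numbers as pairs, whereas the fits with the replicate block did. The cause of this tie was not tested.

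Effects near 0 changed sign. In ESCs, Krt8 gave -0.0047 in the fit of all 12 libraries and -0.012 to 0.046 without single libraries, and Krt18 gave 0.066 with offsets, 0.062 with the replicate block and offsets and -0.11 to 0.086 without single libraries. In EpiLCs, with offsets and with the block and offsets, Cdh1 gave 0.01 and 0.01 (-0.064 to 0.036 without single libraries), Epcam 0.0055 and 0.0056, and Krt18 0.11 and 0.11 (-0.18 to 0.16). For the difference between the cell types, Tjp1 gave -0.04 and Cldn7 0.011 with offsets, and without single libraries Tjp1 ranged from -0.074 to 0.14, Cldn7 from -0.077 to 0.094 and Krt18 from -0.15 to 0.18. The difference in log2 Krt8 to Krt18 between exposures ranged from -0.041 to 0.11 in ESCs and from -0.20 to 0.0016 in EpiLCs without single libraries.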

Other observations

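Among the related genes, close relatives often stood apart between the cell types; the genes in this paragraph were chosen after their values were seen, and the values are log2 ratios of mean CPM in vehicle EpiLCs to vehicle ESCs, with no test. Of the grainyhead-like factor genes, Grhl2 was higher in EpiLCs (7.64 CPM in ESCs and 47.3 CPM in EpiLCs), whereas Grhl3 had a ratio of -2.56 (SE 0.14), from 27.9 to 4.74 CPM. Of the epithelial splicing regulators, Esrp1 had the largest ratio in the 5 lists, while Esrp2 had -0.17 (SE 0.086) with the vehicle and 0.20 (SE 0.076) with Δ9-THC. Among desmosome genes, the plaque genes Dsp (desmoplakin, -1.53, SE 0.16) and Jup (plakoglobin, -1.12, SE 0.10) were lower and Pkp2 (plakophilin 2, 1.79, SE 0.10) was higher. The desmosomal cadherin genes differed too, with Dsc2 at 1.71 (SE 0.21) and Dsg2 lower. Cldn4 stood at 72.3 CPM in ESCs and 71.6 CPM in EpiLCs, unlike Cldn6 and Cldn7.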
